A study of Homo sapiens with 48 samples.

Results

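The genes described here are 8 acute-phase, antimicrobial and complement genes: S100A8, S100A9, SAA1, SAA2, CFB, C3, LCN2 and CEBPD. Every probe that carried 1 of these symbols was taken, which gave 11 probes for 8 of the 20045 genes that had a probe with a single symbol. The genes were chosen from measured values, namely their levels, their changes with BV6 in each cell line and the part of the change that was left after TNFR1 knockdown. Those values are therefore given as a description with no p-value. Where calls are counted among them, the counts follow from the choice and are not support for a change. Tests are given only for contrasts that the choice did not name. These contrasts use the same levels, so their p-values are not independent of the choice.

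RNA of 2 established lines of human breast cancer cells, EVSA-T and MDA-MB-231, was hybridised to 48 Illumina HumanHT-12 bead arrays in 20 groups. BV6 is a bivalent Smac mimetic, a small molecule that binds inhibitor of apoptosis proteins and causes cIAP1 and cIAP2 to be degraded, and these proteins hold down non-canonical NF-kB signalling. EVSA-T cells had 36 h with siRNA against TNFR1 (siTNFR1) or control siRNA (siCtrl) at 5 nM and then 9 h with 5 nM BV6 or none, with 2 arrays in each of 4 groups. MDA-MB-231 cells were transfected with siRELA, siIRF1, siTNFR1 or siCtrl and then had 50 nM BV6 or none over 9 h, in 8 groups of 3 arrays. For the control and TNFR1 siRNAs the labels state 5 nM and 36 h, as in EVSA-T. The same was recorded here for siRELA and siIRF1, for which the labels do not state it. In untransfected MDA-MB-231 cells BV6 was present at 50 nM over 3, 6, 9, 12 or 15 h, with untreated controls taken at 0, 9 and 15 h, in 8 groups of 2 arrays. All groups within a cell line come from that 1 line, and nothing in the labels says that replicates were separate cultures.

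The acute-phase response is the change in secreted proteins that follows infection or injury, best known in liver, where interleukin-6 acts through STAT3 and interleukin-1 and TNF act through NF-kB and C/EBP factors. SAA1 and SAA2 are serum amyloid A apolipoproteins. S100A8 and S100A9 are calcium-binding proteins that form the heterodimer calprotectin, abundant in neutrophils and also made by stressed epithelia. LCN2 (lipocalin-2) binds bacterial siderophores and withholds iron, CFB (complement factor B) is the protease component of the alternative-pathway convertase, and C3 is the central complement protein that this convertase cleaves. CEBPD (C/EBP-delta) is a transcription factor that acts on acute-phase promoters. TNFR1 is the main receptor of TNF, RELA is the activating subunit of canonical NF-kB, and IRF1 is a transcription factor of the interferon response.

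Between 10167 and 13072 probes were detected per array. Levels are log2 signals after background correction and quantile normalization within each experiment, and a probe counts as detected on an array where its deposited detection p is under 0.01. A level near 5.2 to 5.5 is the floor of the scale. Detection does not always follow the level: SAA1 was not detected at 7.42 on 1 siIRF1 array and was detected at 6.59 on 1 untreated array of the time course. The knockdowns lowered their own targets in untreated MDA-MB-231 cells: TNFRSF1A, the gene of TNFR1, was at least 18.5-fold lower with siTNFR1 (limma adjusted p = 3.45e-14), RELA was at least 3.57-fold lower with siRELA (adjusted p = 2.98e-08), and IRF1 fell by 3.35 on the log2 scale with siIRF1 (adjusted p = 7.3e-10). In untreated EVSA-T cells TNFRSF1A was at least 6.62-fold lower with siTNFR1 (adjusted p = 0.0107). "At least" marks a fold against a group in which no array detected the gene, computed against the lowest detected signal of each array or the gene's own signal where that is higher. Where the gene's own signal was the higher, as for SAA1 in siIRF1 cells, the value equals the measured fold and carries its error. Of 8 epithelial markers, EPCAM, KRT7, KRT8 and KRT19 were detected on every array of both lines, CDH1 on all 8 EVSA-T arrays and 0 MDA-MB-231 arrays, KRT18 on 4 of 8 EVSA-T arrays and most MDA-MB-231 arrays, GATA3 on 0 EVSA-T and 3 MDA-MB-231 arrays and ESR1 on none.

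C3 was not detected on any of the 48 arrays with either of its 2 probes. Of the other probes, that of CEBPD was detected on 43 arrays, that of CFB on 26, that of S100A8 on 9, that of SAA2 on 9, that of S100A9 on 8 and that of LCN2 on 6. The 3 SAA1 probes were detected on 32, 15 and 3 arrays. After the filter on undetected probes, 5 members were tested in EVSA-T (S100A8, S100A9, CFB, LCN2 and CEBPD), 5 in the siRNA experiment of MDA-MB-231 (SAA1, SAA2, CFB, LCN2 and CEBPD) and 5 in the time course (S100A8, SAA1, SAA2, CFB and CEBPD). Members that passed only through the groups where they are high had to differ between groups, so the counts over tested members are not support for a change. SAA1 and SAA2 are near-identical copies, and what their probes share was not checked, so the split between them is uncertain.

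**Figure D1:**
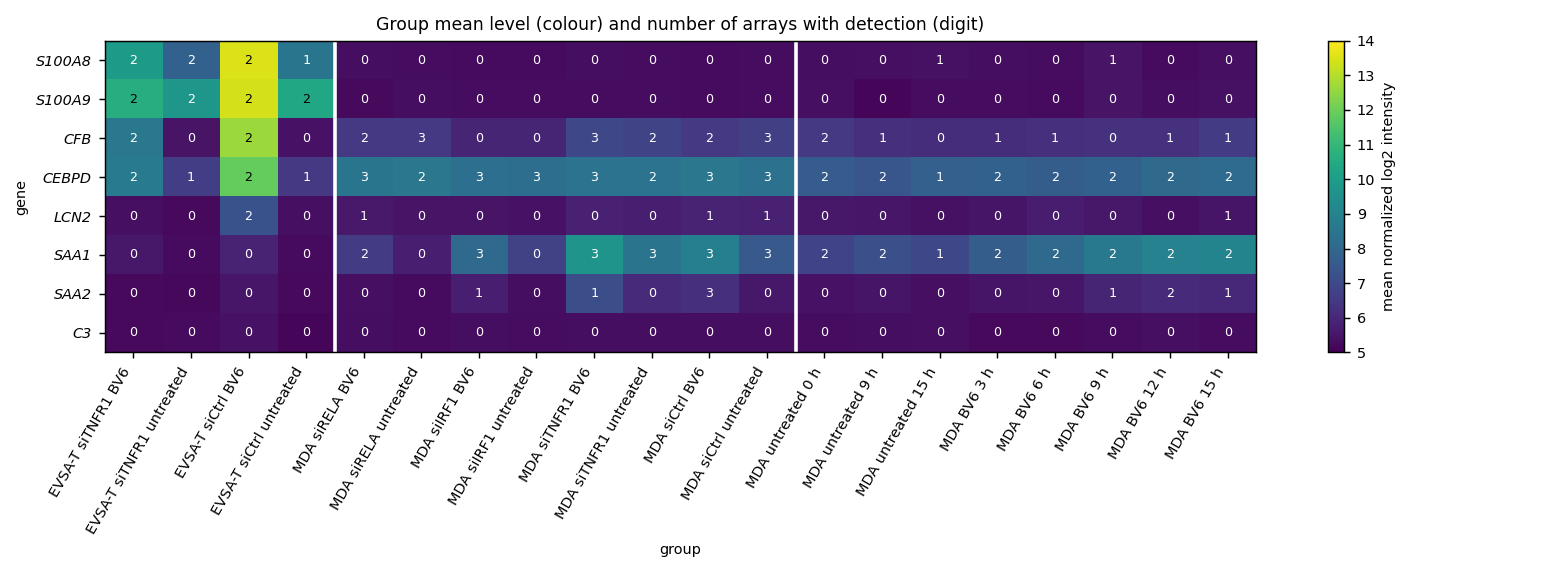
Mean log2 level of each member in each of the 20 groups after 1 normalization of all 48 arrays (colour), with the number of arrays that detected the probe written in each cell. S100A8 and S100A9 are high in the 4 EVSA-T groups, SAA1 in MDA-MB-231 groups, and CFB, CEBPD and LCN2 are highest in EVSA-T cells with BV6 and siCtrl.

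In EVSA-T cells with siCtrl, all 5 tested members were higher with BV6. S100A8 had 13.29 and 13.18 with BV6, against 8.30 and 8.01 in untreated cells (log2 levels, 1 array each, as below). The groups lay far apart, a difference of 5.08 ± 0.25 (SE) or 33.8-fold. Its partner S100A9 had 13.10 and 13.22 with BV6, against 10.02 and 10.24 in untreated cells, a difference of 3.03 ± 0.24 or 8.19-fold. Both genes were detected without BV6, S100A8 on 1 of 2 arrays and S100A9 on both.

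CFB was at 12.52 and 12.19 in BV6-treated EVSA-T cells, against 5.28 and 5.35 in untreated cells, where no array detected it. The log2 difference of 7.04 ± 0.42 is at least 132-fold. CEBPD was at 11.73 and 11.52 with BV6, against 6.20 and 6.11 without, a difference of 5.47 ± 0.36 or 44.4-fold, and 1 of 2 untreated arrays detected it. The smallest change of the 5 was that of LCN2, which had 7.18 and 6.57 with BV6, against 5.19 and 5.35 in untreated cells where it was not detected, a difference of 1.61 ± 0.21 or at least 2.99-fold. In each of these genes the BV6 arrays lay above both untreated arrays. SAA1 and SAA2 were not detected in EVSA-T with or without BV6: SAA1 had 5.98 and 5.32 with BV6, against 5.17 and 5.17 in untreated cells.

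Of the 8422 genes tested in this comparison, 11.4% were called at an adjusted p under 0.05 in limma's fit, 6.84% as higher, and 5 of the 5 tested members were among the higher ones. Their median log2 change was 5.08, against -0.10 over all genes tested. Ordered by log2 change from the highest, CFB came 2nd, CEBPD 7th, S100A8 12th, S100A9 47th and LCN2 167th. The calls and the positions follow from how the genes were chosen.

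**Figure D2:**
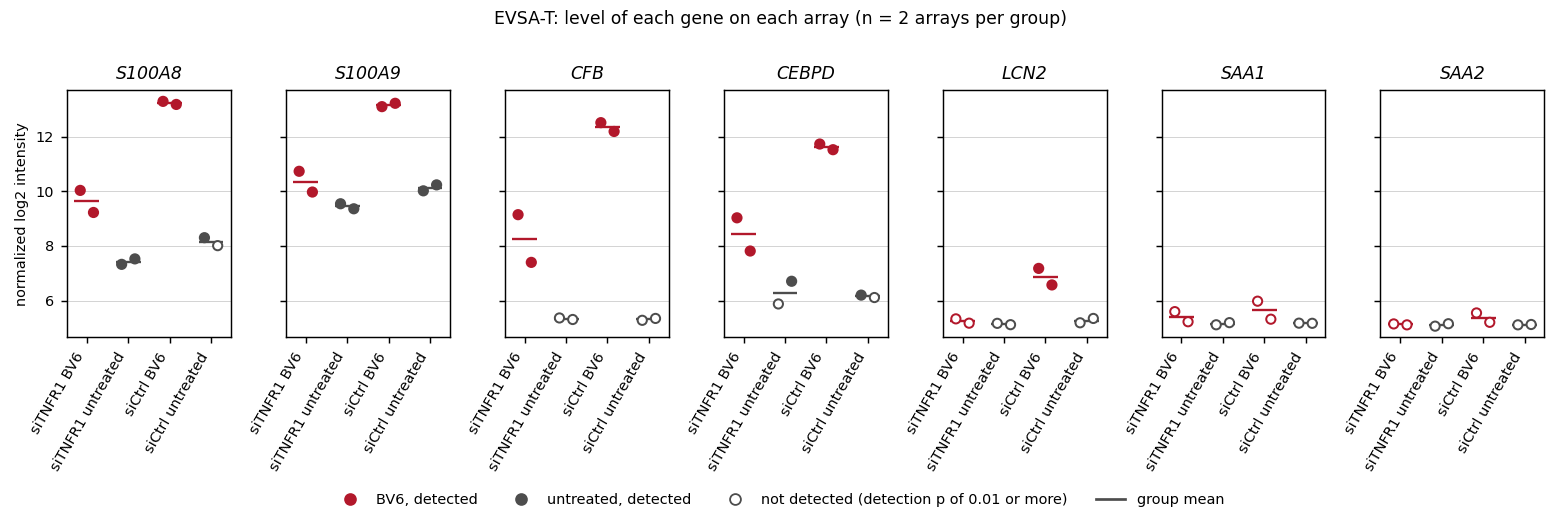
Log2 levels of 7 members on each EVSA-T array, with siTNFR1 and siCtrl, each with BV6 left of untreated; filled points are detected, open points are not, and lines are group means of 2 arrays. S100A8, S100A9, CFB, CEBPD and LCN2 are highest with BV6 and siCtrl, and SAA1 and SAA2 have only open points.

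With TNFR1 knockdown the BV6-treated level of all 5 genes was lower. S100A8 had 10.03 and 9.23 in BV6-treated siTNFR1 cells, against 13.29 and 13.18 with siCtrl. In untreated siTNFR1 cells it had 7.33 and 7.53. The BV6 change with siTNFR1 was thus 2.20 ± 0.25, against 5.08 ± 0.25 with siCtrl, a difference of -2.88 ± 0.36. The change left was 43.4% on the log2 scale, which is 10.98% of the excess of the fold over 1, called the fold scale below.

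CFB had 9.15 and 7.40 in BV6-treated siTNFR1 cells and 5.36 and 5.31, not detected, in untreated ones. Both treated arrays lay between those levels and the 12.52 and 12.19 of siCtrl cells with BV6, but they differed from each other by more than any other pair of member values in EVSA-T replicates. Its change was 2.94 ± 0.42 with siTNFR1, at least 7.66-fold, against 7.04 ± 0.42 with siCtrl. This left 41.7% on the log2 scale and 5.09% on the fold scale. CEBPD had 9.03 and 7.82 in BV6-treated siTNFR1 cells, against 5.88 and 6.71 in untreated ones, and its change of 2.13 ± 0.36 was 38.9% of the siCtrl change on the log2 scale and 7.79% on the fold scale. Without 1 array the siTNFR1 change ran from 2.06 to 3.81 for CFB, from 1.52 to 2.74 for CEBPD and from 1.80 to 2.61 for S100A8, so the shares are loose. CFB and LCN2 were undetected without BV6, so their shares rest on values at the floor.

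S100A9 had 10.73 and 9.97 with siTNFR1 and BV6, against 9.55 and 9.36 in untreated siTNFR1 cells, a change of 0.90 ± 0.24, or 29.7% of the siCtrl change on the log2 scale and 12.1% on the fold scale, and without 1 array the change ran from 0.52 to 1.28. LCN2 returned to the floor: it had 5.33 and 5.17 with siTNFR1 and BV6, against 5.17 and 5.12 untreated, with no detection and a change of 0.11 ± 0.21. That left 6.82% on the log2 scale and 3.86% on the fold scale.

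Differences between the responses (siTNFR1 minus siCtrl) were -2.88 for S100A8, -2.13 ± 0.34 for S100A9, -4.10 ± 0.59 for CFB, -1.50 ± 0.30 for LCN2 and -3.34 ± 0.51 for CEBPD. All 5 were called, which follows from the choice of genes, where 3.85% of all genes were, 3.05% as lower. The LCN2 call was the loosest. It held in 7 of 15 other fits (other processing, or without 1 array), against 14 or 15 of 15 for the other members. Of the 5, S100A8 and CFB were still called for BV6 within siTNFR1 cells, where 0.0712% of all genes (6 genes) were called, and neither call was left without either 1 of the 2 untreated siTNFR1 arrays. Without a filter on undetected probes, 2 of the 5 differences, those of S100A8 and S100A9, and 0 of the 2 calls within siTNFR1 cells were left. Within BV6-treated cells the log2 differences of siTNFR1 from siCtrl ran from -1.62 for LCN2 to -4.08 for CFB, values that follow from the choice of genes, with 5 of 5 counted as called lower, 11.5% of all genes called and 6.96% called lower.

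The choice of genes did not name the contrast of siTNFR1 with siCtrl in untreated EVSA-T cells, but it used the levels in both groups. S100A8 differed by -0.73 ± 0.25 (limma adjusted p = 0.531) and S100A9 by -0.67 ± 0.24 (adjusted p = 0.546), and in each both siTNFR1 arrays lay below both siCtrl arrays. CFB, LCN2 and CEBPD differed by 0.02, -0.12 and 0.14. In this comparison 0 of 5 members were called, against 0.0356% of all genes. That is 3 genes, with 608 at an unadjusted p under 0.05.

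The promoters of S100A8, S100A9, CFB and LCN2, which rose with BV6 in siCtrl EVSA-T cells, are shown. CEBPD also rose there, and its promoter is not reported here. They run from 250 bases before to 50 after the transcription start, 5′ to 3′ on the gene's strand (RefSeq, GRCh38.p14), and 4 of the 8 members had an entry that was used. Capitals mark matches to the kappaB consensus, C/EBP (TTGCNNAA), AP-1 (TGANTCA), STAT (TTCNNNGAA) and TATAAA, searched on both strands. Of 35116 promoters of this length, 11.3% held the kappaB consensus, 10.5% the C/EBP, 7.71% the AP-1, 7.66% the STAT and 11.5% the TATAAA letters. S100A8 has 3 listed starts, and the middle one is printed.
CFB, chr6:31945845-31946144, plus strand: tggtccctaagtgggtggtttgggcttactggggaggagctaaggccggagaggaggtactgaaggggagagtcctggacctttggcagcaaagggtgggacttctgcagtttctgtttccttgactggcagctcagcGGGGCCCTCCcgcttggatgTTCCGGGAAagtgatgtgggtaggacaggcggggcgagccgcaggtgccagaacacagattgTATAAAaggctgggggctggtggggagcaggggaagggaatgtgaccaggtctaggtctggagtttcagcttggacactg
LCN2, chr9:128149203-128149502, plus strand: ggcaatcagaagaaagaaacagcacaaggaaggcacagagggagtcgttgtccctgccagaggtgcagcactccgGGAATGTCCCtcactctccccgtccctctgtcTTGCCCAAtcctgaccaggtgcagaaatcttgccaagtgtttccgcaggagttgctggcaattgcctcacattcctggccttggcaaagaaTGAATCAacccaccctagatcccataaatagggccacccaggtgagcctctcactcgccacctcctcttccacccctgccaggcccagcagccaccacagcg
S100A8, chr1:153391024-153391323, minus strand: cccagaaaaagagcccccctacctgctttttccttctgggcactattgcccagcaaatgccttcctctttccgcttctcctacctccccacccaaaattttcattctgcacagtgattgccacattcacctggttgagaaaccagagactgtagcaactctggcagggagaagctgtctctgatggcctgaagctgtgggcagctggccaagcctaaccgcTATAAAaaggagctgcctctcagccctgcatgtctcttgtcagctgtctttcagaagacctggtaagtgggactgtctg
S100A9, chr1:153357604-153357903, plus strand: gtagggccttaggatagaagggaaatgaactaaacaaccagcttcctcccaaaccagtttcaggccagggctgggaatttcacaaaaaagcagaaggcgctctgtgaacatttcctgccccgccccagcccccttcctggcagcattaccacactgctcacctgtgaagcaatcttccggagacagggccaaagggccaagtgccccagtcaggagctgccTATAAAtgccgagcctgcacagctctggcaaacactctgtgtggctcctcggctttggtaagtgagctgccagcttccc
The CFB promoter held a kappaB match from -112 to -103, a STAT match from -92 to -84 and TATAAA from -30 to -25, counted from the start. LCN2 held a kappaB match on the opposite strand from -175 to -166, a C/EBP match from -143 to -136 and an AP-1 match from -52 to -46. In S100A8 and S100A9 the only match was TATAAA, from -29 to -24 in both printed promoters. For the other two listed S100A8 starts, TATAAA lay from -126 to -121 at one and was not found at the other. The letters searched are a description of these windows and not of binding.

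S100A8 and S100A9 lie on chromosome 1 at 153390032 to 153422583 and 153357854 to 153361023, and SAA1 and SAA2 lie on chromosome 11 at 18266264 to 18269967 and 18238236 to 18248668 (GRCh38.p14). CFB is on chromosome 6 at 31946095 to 31952084, LCN2 on chromosome 9 at 128149453 to 128153453 and C3 on chromosome 19 at 6677704 to 6720650. These are RefSeq gene bounds. The probes have no coordinates here.

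In MDA-MB-231 cells with siCtrl, SAA1 was the member called with BV6. It had 9.26, 9.01 and 8.74 in BV6-treated siCtrl cells, against 7.65, 7.62 and 7.62 in untreated siCtrl cells. All 6 arrays detected it and the groups did not overlap, a change of 1.37 ± 0.26 or 2.59-fold. SAA2 had 6.60, 6.50 and 5.91 with BV6, all detected, against 5.90, 5.58 and 5.51, none detected. That change of 0.67 ± 0.19, at least 1.60-fold, was not called, but was called with the replicate number as a block. The second SAA1 probe had 7.21, 7.57 and 7.32 with BV6, against 6.40, 6.15 and 5.85 without, the same order as the main probe.

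The other members stayed near their untreated levels. CFB had 6.93, 6.90 and 6.00 with BV6, against 7.37, 6.64 and 6.46 without, overlapping groups with a change of -0.22. CEBPD, at 8.11 to 9.30 over the 24 siRNA arrays, changed by 0.21, and LCN2, at 5.32 to 6.34 with 3 detections, by 0.04. S100A8 and S100A9 were detected on 0 of 24 arrays. Of the 5 tested members 1 was called (2 with the replicate block), against 2.55% of all genes. Within slide 1 alone the SAA1 change was 1.50 and within slide 2 alone it was 1.12, and SAA2 gave 0.81 and 0.40.

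**Figure D3:**
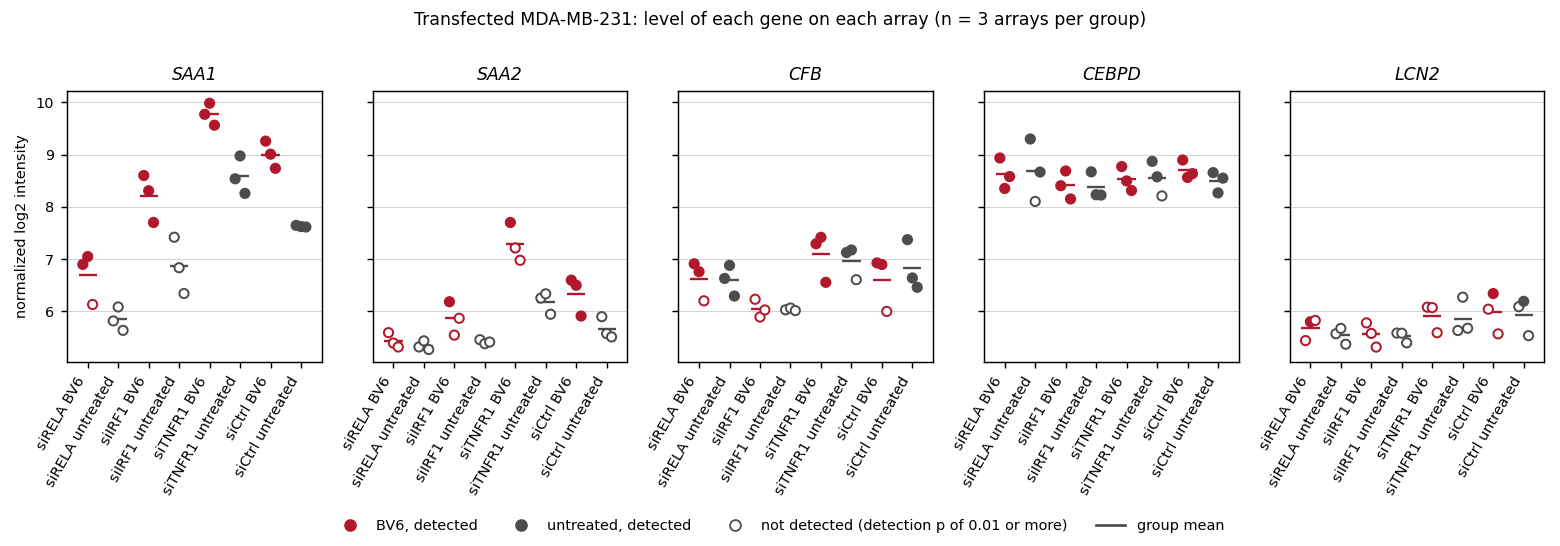
Log2 levels of SAA1, SAA2, CFB, CEBPD and LCN2 on each of the 24 MDA-MB-231 siRNA arrays, with BV6 left of untreated for each siRNA; filled points are detected, open points are not, and lines are means of 3 arrays. SAA1 is lowest with siRELA and highest with siTNFR1 and BV6.

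TNFR1 knockdown did not lower SAA1 or SAA2 in MDA-MB-231. SAA1 had 9.77, 9.98 and 9.56 in BV6-treated siTNFR1 cells, against 8.54, 8.98 and 8.26 in untreated siTNFR1 cells. Its change of 1.18 ± 0.26 was 86.1% of the siCtrl change on the log2 scale and 79.8% on the fold scale. SAA2 had 7.70, 7.22 and 6.98 with BV6, the first of them detected, against 6.26, 6.34 and 5.95 untreated, none detected. The SAA2 change was 1.12 ± 0.19, at least 2.17-fold, or 166% of the siCtrl change, whose own groups were partly undetected. The responses differed by -0.19 ± 0.36 for SAA1 and by 0.44 ± 0.27 for SAA2, and 0 of 5 members were called for this difference, against 0.0104% of all genes. Of the 5 tested members 2 were called for BV6 within siTNFR1 cells, against 1.32% of all genes.

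Levels were also set against siCtrl directly. The choice of genes did not name the contrast in untreated cells, though it used these levels. In untreated cells SAA1 differed by 0.96 ± 0.26 or 1.95-fold (limma adjusted p = 0.0338), with all 3 siTNFR1 arrays above all 3 siCtrl arrays. SAA2 differed by 0.52 ± 0.19 (adjusted p = 0.143). Of 5 members 1 was called, against 3.31% of all genes. The SAA1 call was lost with the mean of its probes (0.45, adjusted p = 0.126), without the detection filter, within either slide alone (0.90 and 1.00) and in 5 of 6 fits that left out an array, all but that without siTNFR1 replicate 3, with differences of 0.77 to 1.13. Within BV6-treated cells SAA1 differed by 0.77 ± 0.26, which was not called, and SAA2 by 0.96 ± 0.19, the 1 of 5 members called, against 4.96% of all genes.

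RELA knockdown lowered SAA1 with and without BV6. SAA1 had 6.90, 7.05 and 6.13 in BV6-treated siRELA cells, against 9.26, 9.01 and 8.74 in BV6-treated siCtrl cells, a difference of -2.31 ± 0.26 (limma adjusted p = 4.23e-07). In untreated cells it had 5.82, 6.09 and 5.64 with siRELA, none detected, against 7.65, 7.62 and 7.62 with siCtrl. That is a difference of -1.78 ± 0.26, at least 3.44-fold (adjusted p = 1.63e-05). Neither pair of groups overlapped. Within slides 1 and 2 alone, SAA1 differed by -2.16 and -2.60 with BV6 and by -1.68 and -1.98 in untreated cells.

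SAA2 followed SAA1 in BV6-treated cells. It had 5.59, 5.40 and 5.32 with siRELA, none detected, against 6.60, 6.50 and 5.91 with siCtrl, at least 1.83-fold lower (log2 difference -0.90 ± 0.19, limma adjusted p = 0.00111). Within slide 2 alone, which holds only replicate 3 of these groups, this was -0.59. In untreated cells SAA2 was undetected in both groups and differed by -0.32 (adjusted p = 0.247). CFB differed by 0.02 with BV6 (adjusted p = 0.981) and by -0.22 without (adjusted p = 0.602), and CEBPD by -0.08 and 0.20. LCN2 differed by -0.29 with BV6 and by -0.40 without (adjusted p = 0.18). Members called lower were 2 of 5 with BV6 and 1 of 5 in untreated cells, where 9.4% and 9.9% of all genes were called lower and 19.1% and 21% were called in either direction.

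Within siRELA cells the BV6 change of SAA1 was 0.85 ± 0.26, at least 1.80-fold, which was not called. The groups did not overlap, and 2 of 3 BV6 arrays and 0 of 3 untreated arrays detected it. With the replicate number as a block this change was called. In the main fit of this comparison 0 of 5 members were called, against 0.303% of all genes (29 genes, with 566 at an unadjusted p under 0.05). The SAA1 response with siRELA differed from that with siCtrl by -0.53 ± 0.36 (limma adjusted p = 0.996) and that of SAA2 by -0.58 ± 0.27 (adjusted p = 0.915). For this difference 0 of 5 members and 0.0417% of all genes were called. The SAA1 level was lower under both conditions, and a difference in its BV6 response was not detectable with 3 arrays a group.

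IRF1 knockdown came with lower SAA1 in both conditions and lower CFB in untreated cells. SAA1 had 8.60, 8.31 and 7.70 in BV6-treated siIRF1 cells, against 9.26, 9.01 and 8.74 with siCtrl, a difference of -0.80 ± 0.26 (limma adjusted p = 0.026). In untreated cells it had 7.42, 6.84 and 6.34 with siIRF1, none detected, against 7.65, 7.62 and 7.62, at least 1.70-fold lower (log2 difference -0.76 ± 0.26, adjusted p = 0.0348). CFB had 6.03, 6.07 and 6.02 in untreated siIRF1 cells, none detected, against 7.37, 6.64 and 6.46, at least 1.73-fold lower (log2 difference -0.79 ± 0.26, adjusted p = 0.0324). With BV6 CFB differed by -0.56 (adjusted p = 0.133). With the replicate number as a block, CFB (adjusted p = 0.0238), SAA2 (adjusted p = 0.0226) and LCN2 (adjusted p = 0.0494) were called lower with BV6 besides SAA1.

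These siIRF1 calls rest on few arrays. In untreated cells the SAA1 call was lost in 5 of 6 fits without 1 array (-1.04 to -0.50), all but that without siIRF1 replicate 1. The CFB call was lost in 4 of 6 (-0.97 to -0.51), all but those without siCtrl replicate 2 or 3. With BV6 the SAA1 call was lost without siCtrl replicate 1 or 2 or siIRF1 replicate 3 (-0.996 to -0.547 over the 6 fits). The SAA1 difference was -0.22 within slide 1 and -1.03 within slide 2 in untreated cells, and -0.53 and -0.73 with BV6. Within each slide, 1 of the groups compared is a single array, so these values are loose. Of 5 members 2 were called in untreated cells and 1 with BV6 (4 with the block), against 21.8% and 22.1% of all genes in either direction and 12.4% and 12.8% called lower. The BV6 change of SAA1 within siIRF1 cells was 1.34 ± 0.26, at least 2.53-fold, where 1 of 5 members and 0.845% of all genes were called. It differed from that with siCtrl by -0.04 ± 0.36 (limma adjusted p = 0.999), with 0 of 5 members and 0.177% of all genes called.

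**Figure D4:**
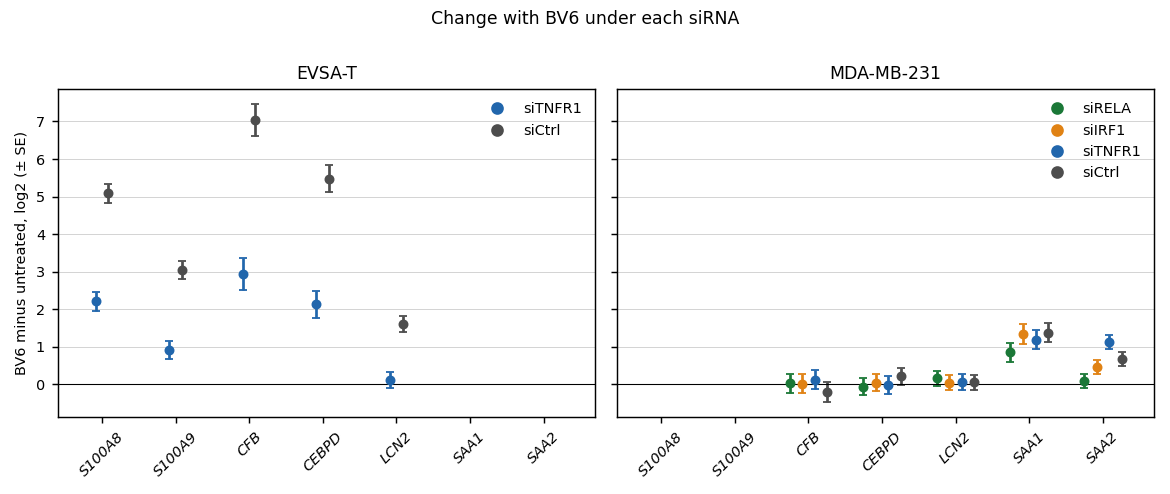
Log2 change with BV6 against untreated cells (± SE) for each tested member and siRNA in EVSA-T and MDA-MB-231. CFB, CEBPD, S100A8, S100A9 and LCN2 change most in EVSA-T with siCtrl and less with siTNFR1, while the SAA1 change in MDA-MB-231 lies between 0.85 and 1.37 with every siRNA.

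Over time in untransfected MDA-MB-231 cells, SAA1 was higher at each later BV6 time up to 12 h. It had 8.02 and 7.24 at 3 h, 8.43 and 7.69 at 6 h, 9.24 and 7.94 at 9 h, 9.46 and 8.49 at 12 h and 9.22 and 8.83 at 15 h of BV6. Untreated cells had 6.96 and 6.59 at 0 h, 7.37 and 6.95 at 9 h and 7.16 and 6.65 at 15 h. From 6 h on every BV6 array lay above all 6 untreated arrays, while at 3 h the groups overlapped. Against the mean of the untreated groups the fold was 1.60 at 3 h, 2.16 at 6 h, 3.13 at 9 h, 4.07 at 12 h and 4.22 at 15 h, and the log2 changes ran from 0.68 ± 0.34 to 2.08 ± 0.34. These 5 comparisons share their untreated arrays.

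Of the 5 tested members, 0, 0, 1, 1 and 1 were called at 3, 6, 9, 12 and 15 h, SAA1 each time, against 0.382%, 0.473%, 1.22%, 4.15% and 6.96% of all genes. With the replicate number as a block, 1 was called at 6 h and 3 at 12 and at 15 h, with SAA2 and CEBPD besides SAA1. The SAA1 call at 9 h was lost without its first BV6 array or the second untreated array of 0, 9 or 15 h, and that at 12 h without its first BV6 array. The replicates of SAA1 differ: the first was higher than the second at every BV6 time, and without the first array at 9 h the change was 1.00, against 1.65 with both. The first and second arrays of 6 h and later lie on different slides. Slide 3 holds the first ones, both 3 h arrays and all untreated arrays. Within slide 3 alone the SAA1 changes were 0.68, 1.48, 2.30, 2.51 and 2.27.

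SAA2 was near the floor for most of the time course. It was detected on the first array at 9 h (6.26), on both at 12 h (6.38 and 5.67) and on the first at 15 h (6.26), and on no untreated array (5.23 to 5.60). Its changes were 0.51, 0.65 and 0.59 (SE 0.22) at 9, 12 and 15 h. CEBPD had 8.25 and 7.98 at 15 h of BV6, against 7.28 to 8.08 on the untreated arrays, and changed by 0.50 at 12 h and 0.55 at 15 h. CFB stayed within 5.93 to 6.69 and S100A8 within 5.15 to 5.45 over the 16 arrays, 2 of which detected S100A8. S100A9 was not detected and LCN2 was detected on 1 array. In untreated cells 15 h against 0 h, a contrast that the choice did not name, gave 0.13 for SAA1, -0.33 for CFB and 0.14 for CEBPD. By limma 0 of 5 members and 0 of 9944 genes were called there, with 290 at an unadjusted p under 0.05.

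**Figure D5:**
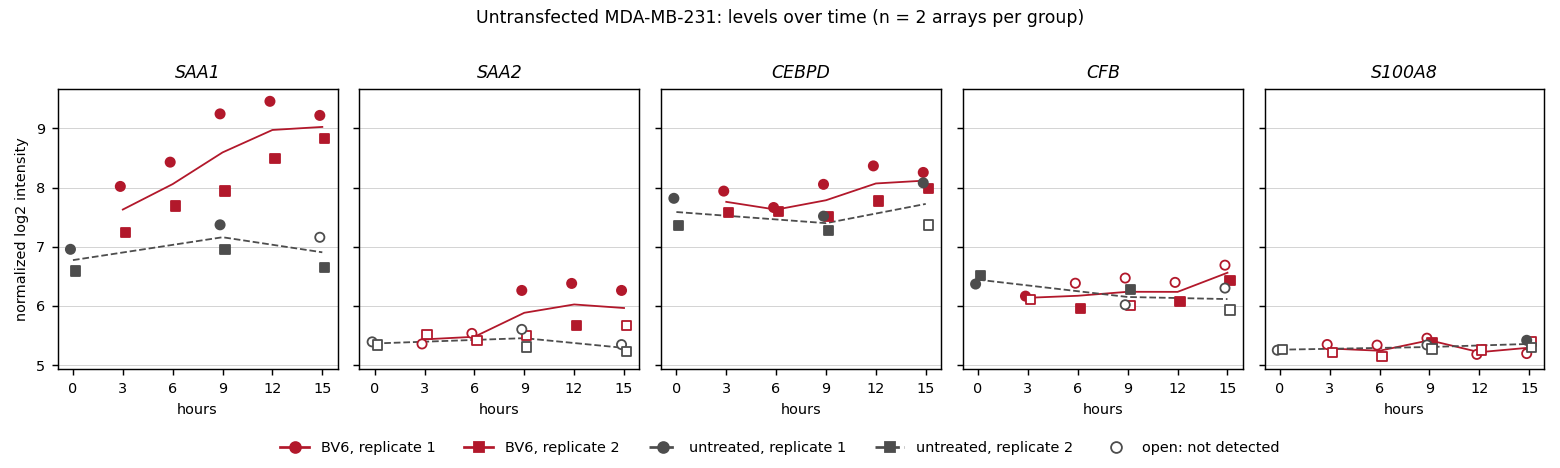
Log2 levels of SAA1, SAA2, CEBPD, CFB and S100A8 in untransfected MDA-MB-231 cells from 0 to 15 h, with BV6 (solid lines) and untreated (dashed lines); circles are replicate 1, squares replicate 2, and open symbols are not detected. The SAA1 lines, drawn through group means, are apart from 3 h on, while the arrays overlap at 3 h and not from 6 h on. The first replicate runs above the second at each BV6 time.

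The lines differed in which members they expressed before BV6. Fitted together, untreated siCtrl EVSA-T cells were at least 8.72-fold above MDA-MB-231 cells in S100A8 and at least 31.8-fold above in S100A9. They were at least 4.24-fold lower in SAA1 and at least 2.33-fold lower in CFB, and CEBPD differed by -1.86 ± 0.28 on the log2 scale. LCN2 was detected on 0 of 2 EVSA-T and 1 of 3 MDA-MB-231 arrays and differed by -0.44, and SAA2, detected on none of the 5, differed by -0.35. Of the 7 tested members 5 were called, and so were 62% of all genes. The BV6 response of EVSA-T minus that of MDA-MB-231 was 7.37 ± 0.53 for CFB, 5.16 ± 0.40 for CEBPD, 5.06 ± 0.24 for S100A8, 3.10 ± 0.24 for S100A9, 1.78 ± 0.33 for LCN2, -0.31 ± 0.29 for SAA2 and -0.82 ± 0.32 for SAA1 on the log2 scale. The first 5 were called, which follows from the choice of genes, against 4.96% of all genes and 3.08% in that direction. Line, slide and BV6 dose (5 nM in EVSA-T, 50 nM in MDA-MB-231) changed together and cannot be told apart.

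With all 48 arrays normalized together, the order of the 20 groups was as follows. S100A8 was highest in BV6-treated siCtrl EVSA-T cells (13.52 ± 0.10, SD, n = 2), then in BV6-treated siTNFR1 cells (9.92 ± 0.54), untreated siCtrl cells (8.50 ± 0.20) and untreated siTNFR1 cells (7.79 ± 0.13), and its MDA-MB-231 means did not exceed 5.49. S100A9 had the same order, with 10.61 ± 0.53 and 10.39 ± 0.15 in the next groups, BV6-treated siTNFR1 and untreated siCtrl cells, which overlapped. CEBPD had 11.87 ± 0.15 in the first group and 8.75 ± 0.83 in the second, which overlapped MDA-MB-231 groups (7.43 to 8.58), and untreated EVSA-T groups were lowest at 6.64 and 6.51. CFB had 12.64 ± 0.23 and 8.61 ± 1.20 in those 2 groups, then 5.93 to 6.96 in MDA-MB-231, with untreated EVSA-T cells lowest at 5.46 and 5.43. LCN2 had 7.26 ± 0.42 in the first group and at most 5.88 elsewhere.

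SAA1 had another order. BV6-treated siTNFR1 MDA-MB-231 cells were highest (9.66 ± 0.21, SD, n = 3). Next came BV6 at 15 h (9.06 ± 0.28, n = 2), at 12 h (9.01 ± 0.68, n = 2) and siCtrl with BV6 (8.89 ± 0.26, n = 3), which overlapped each other. Untreated siRELA cells (5.75 ± 0.21) and all EVSA-T groups (5.25 to 5.87) were at the low end. SAA2 was also highest in BV6-treated siTNFR1 cells (7.17 ± 0.37), followed by siCtrl with BV6 (6.22 ± 0.36). SAA1 and SAA2 had r = 0.854 over the 20 group means, S100A8 and S100A9 r = 0.973, CFB and CEBPD r = 0.908, and S100A8 and SAA1 r = -0.57. The groups of each line share their line and slides, so these values describe the 2 lines as much as the treatments.

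By the same measure over 12489 genes, the genes with the group means most like CFB were CCL2 (r = 0.965), IL20 (0.947) and FBLN5 (0.947). For S100A8 they were SGPP2 (0.993), ICOSLG (0.990) and CX3CL1 (0.981), and for S100A9 FZD9 (0.998), CYP4Z2P (0.997) and ATP2C2 (0.996). SAA1 was closest to TNFSF10 (0.925), SELENOS (0.916) and TRIM47 (0.914), and SAA2 to SAA4 (0.883), SAA1 (0.854) and IFIH1 (0.842). LCN2 was closest to FAM83A (0.942), CD34 (0.933) and SIRPA (0.915), and CEBPD to CFB (0.908), SDC4 (0.883) and FAM43A (0.876).

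Other genes listed as acute-phase were read in EVSA-T. The list was not split by the direction each gene takes in an acute-phase response. A rise of a listed gene such as ALB is therefore not read as part of such a response. Of 25 listed, 7 were measured and 5 rose with BV6 in siCtrl cells, where 11.4% of all genes were called and 6.84% called higher, with a median log2 change of 2.16 against -0.10 over all genes. ORM1 (orosomucoid) was at least 24.1-fold higher (log2 change 4.59 ± 0.42, limma adjusted p = 4.11e-05) and SERPINA3 (alpha-1-antichymotrypsin) at least 22.3-fold higher (4.53 ± 0.22, adjusted p = 9.82e-07). ORM2 was at least 8.15-fold higher and ALB (albumin) changed by 2.16 (adjusted p = 0.00266). With siTNFR1 0 of the 7 were called for BV6, against 0.0712% of all genes. The BV6 response was lower with siTNFR1 for 4 of the 7, against 3.85% of all genes called and 3.05% called lower, by -4.06 for SERPINA3 (adjusted p = 0.000155), -3.38 for ORM1 (adjusted p = 0.00965), -2.86 for ORM2 (adjusted p = 0.00569) and -1.19 for SOD2 (adjusted p = 0.0159).

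Among 22 other S100 and secreted antimicrobial genes, 4 of 12 measured rose with BV6 in siCtrl EVSA-T cells, against 6.84% of all genes called higher and 11.4% called. DEFB1 (beta-defensin 1) was at least 21.7-fold higher (limma adjusted p = 2.2e-06), S100A7 (psoriasin) at least 3.86-fold, PI3 (elafin) at least 3.81-fold and SLPI changed by 0.84 (adjusted p = 0.0305). The DEFB1, S100A7 and PI3 responses were lower with siTNFR1, by -3.41, -1.96 and -1.86. Of 34 other complement genes and regulators 4 were measured, and 1 rose: CD59, which blocks the membrane attack complex, by 1.07 (adjusted p = 0.00826). Of the receptors 2 of 9 were measured and 0 were called. These last counts, of few genes, stand against the same 11.4%.

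Of 29 regulators of acute-phase genes 16 were measured in EVSA-T, where 8 rose and 1 fell with BV6 in siCtrl cells, against 11.4% of all genes called and 6.84% called higher. TNF was at least 78.0-fold higher (limma adjusted p = 3.26e-06), NFKBIZ, which encodes the IkappaB-zeta coactivator, changed by 4.19 (adjusted p = 1.08e-05), RELB was at least 7.17-fold and NFKB2 at least 6.83-fold higher, and CEBPA fell by 1.60 (adjusted p = 0.000597). TNF was the 1 list gene still called for BV6 in siTNFR1 EVSA-T cells, at least 12.3-fold higher (adjusted p = 0.00731). Its response differed from that with siCtrl by -2.73 (adjusted p = 0.0226). The responses of RELB, NFKB2, NFKBIZ and NFKB1 differed with siTNFR1 by -2.85, -2.48, -2.26 and -1.91, and that of CEBPA was higher by 1.40. IRF1 was at least 37.1-fold higher with BV6 and siCtrl, and its response differed by -2.92 with siTNFR1.

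In MDA-MB-231 siCtrl cells with BV6, where 2.55% of all genes were called, 6 of 19 measured regulators rose, led by NFKB2 (2.62, limma adjusted p = 3.32e-10), IL6 (1.55), RELB (1.02) and NFKBIZ (0.88), while 0 of 7 acute-phase, 0 of 9 complement and 0 of 10 S100 and antimicrobial genes were called. At 15 h of the time course 6.96% of all genes were called. Of 6 genes of the acute-phase list 2 rose there, ALB by 2.10 (adjusted p = 0.000424) and SOD2 by 1.63 (adjusted p = 3.24e-05). Of the regulators 10 of 20 rose, led by IL6 (2.93), NFKB2 (2.55), RELB (1.86) and NFKBIZ (1.20). With siRELA and BV6, where 19.1% of all genes were called and 9.4% called lower, 10 of 19 regulators were lower, among them IL6 by at least 10.1-fold (adjusted p = 2.07e-08), and so were SERPINA1 by -0.88 and SOD2 by -0.76 (adjusted p = 0.000177). The regulator list holds RELA itself, the target of this siRNA, so the count of regulators is not independent of the knockdown. In untreated siIRF1 cells, where 21.8% of all genes were called and 12.4% called lower, 6 of 10 S100 and antimicrobial genes were lower, S100A3 by -1.25 (adjusted p = 9.88e-06), S100A2 by -0.95, S100A13 by -0.73 and S100A4 by -0.67.

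Markers of cell types that make these proteins in tissue were read on the same EVSA-T arrays. Of 14 myeloid and neutrophil markers 5 were detected on any EVSA-T array, and PTPRC, CSF3R, MPO, AZU1, TYROBP and FCER1G were detected on none of the 48. The summed linear level of the 14 was 1181 to 1440 with BV6 and siCtrl and 906.0 to 909.5 with BV6 and siTNFR1. It was 759 to 798 in untreated siCtrl cells and 783 to 814 in untreated siTNFR1 cells. In MDA-MB-231 cells with siCtrl the same sum was 1372 to 1561 with BV6 and 1365 to 1474 untreated. With most of the 14 undetected in EVSA-T, the sum does not describe these markers as a set. CD68 was the 1 called for BV6 in siCtrl EVSA-T cells, with 1.65 ± 0.21 (limma adjusted p = 0.000411). It was also detected on all 24 siRNA and all 16 time course arrays of MDA-MB-231. Of 10 hepatocyte markers 2 were detected in EVSA-T, and APOA1, APOA2, TTR and AHSG on none of the 48 arrays. The 2 were ALB, on 4 EVSA-T arrays (mean level 7.20), and F2, on 1 (5.34, near the floor). ALB is also counted above in the acute-phase list. The sum of the 10 was 703 to 836 with BV6 and siCtrl and 436 to 536 with BV6 and siTNFR1. It was 443 to 453 in untreated siCtrl cells and 426 to 503 in untreated siTNFR1 cells. With the other markers undetected, this sum does not describe the markers as a set. The part of these markers in the members' changes was not tested, and in bulk RNA fewer cells and less RNA per cell cannot be told apart.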

How the data were processed

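RNA was measured on 48 bead arrays, 1 per sample, grouped by the sample labels. Per the file headers, the deposited table holds signals with a detection p-value for each. Although named non-normalized, the signals lie between 5.47 and 14.9 and were read as log2 values. The authors' deposited series matrix, also in log2 units and with the same set of values on every array, served as an alternative. The method behind the detection p and the scanner software are not given in the sources used here.

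Of 48107 probes 3 lacked a value and were dropped, and the 30112 with a single gene symbol were used (8 carried several symbols and 17984 carried none). In R 4.3.3, neqc of limma 3.58.1 corrected the background with an offset of 16 and then quantile normalized each experiment. Probes with a detection p under 0.01 on at least 3 arrays (siRNA experiment) or 2 arrays (others) were kept, and each gene was represented by its probe of highest mean, leaving 9586 genes in the siRNA experiment, 9944 in the time course, 8422 in EVSA-T and 10716 in the joint fit of both lines. Fits used lmFit and eBayes with 1 coefficient per group, with 16, 8, 4 and 12 residual degrees of freedom. All tests were two-sided with Benjamini-Hochberg adjustment over the genes of each comparison, and a call is an adjusted p under 0.05. Time course changes are against the mean of the 3 untreated groups. The fits were tested on simulated data.

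The members and the gene lists were chosen with earlier results of these data known. Of each list, up to 4 called genes a comparison are named, by absolute log2 change, besides the targeted genes. CEBPA and NFKB1 are named in EVSA-T beyond this rule. Likeness names the 3 genes with the highest r to each member. The p-values measure only the spread between these samples, which may be technical, and the number of arrays limits the precision. The lowest correlation between replicate arrays, across genes, was r = 0.981. The arrays lie on 4 slides of 12: the siRNA arrays on slides 1 and 2, the time course on slides 3 and 4, and EVSA-T on slide 4. Slide 1 holds replicates 1 and 2 of siCtrl and siRELA and replicate 1 of siIRF1 and siTNFR1, and slide 2 the rest of the siRNA arrays. Fits within 1 of these slides thus leave some groups with a single array. Contrasts of siIRF1 or siTNFR1 with siCtrl are partly confounded with slide.

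Residuals of arrays with the same replicate number were compared by their correlation over genes. Numbers were read as pairing where 3 or more pairs were all above 0.1, as was so for BV6 in siCtrl (0.127 to 0.242) and siIRF1 cells (0.176 to 0.312), for siRELA (0.167 to 0.392) and siIRF1 (0.101 to 0.335) within BV6, for the time course at 6, 9, 12 and 15 h, and for the EVSA-T difference between responses (0.162 to 0.379).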

Additional observations from a re-analysis of the deposited data

Results flagged for a closer look

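The BV6 response differed between the lines for 5 members by the interaction term of limma's joint fit, which tested the difference itself. The log2 response of EVSA-T cells with siCtrl minus that of MDA-MB-231 cells with siCtrl was 7.37 for CFB, 5.16 for CEBPD, 5.06 for S100A8, 3.10 for S100A9 and 1.78 for LCN2. These genes were chosen for this difference, so it is a description. The BV6 dose and the slide differ between the lines as well.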

How the results depend on the processing

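Over 2128 values of members under the alternatives, 2003 kept their side of the threshold, 55 passed it anew and 70 no longer passed it. Among these, 0 called values changed direction. The 2003 include values that were not called and changed sign, so they do not all share the direction of the main fit. All 5 members stayed called with BV6 in siCtrl EVSA-T cells, for siTNFR1 within BV6 in EVSA-T and for the response of EVSA-T minus MDA-MB-231 under each alternative run. These calls follow from the choice of genes and are not support for it. Counts of called members moved in the comparisons that follow, and the cause was not tested except where fewer arrays were fitted.

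With BV6 in siCtrl MDA-MB-231 cells 1 member was called. It was 2 with the authors' matrix, without background correction, with the mean of probes, with the replicate block, with slide as a block and within slide 1, 0 within slide 2, and 1 to 2 without 1 array. With BV6 in siTNFR1 cells 2 were called, 1 without the detection filter and within slide 1, 0 within slide 2, and 1 to 2 without 1 array. With BV6 in siRELA cells 0 were called, and 1 (SAA1) with the replicate block or within slide 1. With BV6 in siIRF1 cells 1 was called, 0 within either slide, and 0 to 1 without 1 array. For siTNFR1 in untreated cells 1 was called, 0 without the filter, with the mean of probes and within either slide, 2 with the replicate block or the slide as a block, and 0 to 1 without 1 array. Within BV6 the 1 call for siTNFR1 became 2 with the matrix, no background correction, an offset of 50, the mean of probes, the replicate block and the slide as a block. For siRELA the 1 call in untreated cells became 2 with the matrix and without background correction, and the 2 calls within BV6 became 3 within slide 1, with LCN2 added, and 1 within slide 2. For siIRF1 the 2 calls in untreated cells became 0 without the filter, 1 within slide 1, 0 within slide 2 and 0 to 2 without 1 array, and the 1 call within BV6 became 0 without the filter, 4 with the replicate block, 0 within either slide and 0 to 4 without 1 array.

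In the time course the 0 calls at 6 h became 1 with the replicate block or the slide as a block. The 1 call at 9 h became 0 with an offset of 50, without the filter, with the mean of probes and against untreated arrays of the same time, 2 with the slide as a block and 0 to 1 without 1 array. The 1 call at 12 h and at 15 h became 2 with the matrix, without background correction, with the slide as a block and within slide 3, and 3 with the replicate block, and at 12 h it was 0 to 1 without 1 array. In EVSA-T the 2 calls for BV6 with siTNFR1 became 1 with an offset of 50 or the mean of probes, 0 without the filter and 0 to 3 without 1 array. The 5 differences between siTNFR1 and siCtrl responses became 2 without the filter and 4 to 5 without 1 array. That of LCN2 kept its call under 7 of 15 alternatives. Where the numbers pair the samples the replicate block changed no call of a member other than those given here and in the report.

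Counts over all genes also moved. BV6 in siCtrl MDA-MB-231 cells called 244 genes, 30 to 389 under other settings, BV6 with siTNFR1 127 (16 to 192), with siRELA 29 (1 to 40) and with siIRF1 81 (3 to 121). For siTNFR1 317 genes were called in untreated cells (47 to 509) and 475 within BV6 (54 to 712), for siRELA 2012 (536 to 2391) and 1835 (285 to 2216), and for siIRF1 2087 (785 to 2408) and 2121 (756 to 2523). The responses differed for 1 gene with siTNFR1 (0 to 10), 4 with siRELA (0 to 10) and 17 with siIRF1 (0 to 24). The lowest of these counts come from single slides, which hold fewer arrays. At 3, 6, 9, 12 and 15 h 38 (15 to 390), 47 (9 to 94), 121 (30 to 219), 413 (117 to 673) and 692 (209 to 1112) genes were called. In EVSA-T BV6 called 961 genes with siCtrl (483 to 1322) and 6 with siTNFR1 (1 to 15), siTNFR1 called 965 within BV6 (444 to 1361) and 3 in untreated cells (0 to 7), and 324 responses differed (173 to 505). Untreated cells at 15 h against 0 h called 0 genes (0 to 1).

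Signals near the floor limit LCN2, SAA2 and, in untreated EVSA-T cells, CFB, and small changes there are compressed. Their folds marked "at least" equal the measured fold where the gene's own signal was above the lowest detected signal. C3 was not detected on any array and has no tested change.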
